A study of Mus musculus with 35 samples.

Results

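The DSS by genotype interaction in conventional mice asks whether dextran sulfate sodium (DSS) moved colon transcripts by another amount in Reg3a-transgenic than in wild-type mice. It was computed per gene as a difference of differences, DSS TG minus untreated TG, less DSS WT minus untreated WT, on the log2 scale. A positive value means that the DSS-treated mice stood higher against their untreated mice in the transgenic genotype than in the wild-type one. The 20 conventional mice were chosen by the group in their titles from 35 mice in all, and the other 15 mice were axenic animals and do not enter the comparison. All mice were C57BL/6N, with 5 in each of 4 groups. DSS TG mice carried the Reg3a transgene and drank 3% DSS for 5 days and then plain water. Untreated TG mice carried it and had plain water throughout. DSS WT and untreated WT mice were wild-type and had the same 2 regimens. For every group the labels give day 12 for collecting the colon, and 200 ng of total RNA per mouse was hybridised to 1 Affymetrix Mouse Gene 1.0 ST array. The sources used here do not name the species or promoter of the transgene, the hour of collection, the age and sex of the mice or any shared litter or cage, so p-values measure the spread between these mice. A treatment characteristic in the labels describes conventional mice as following a microbial transfer, whereas titles and design text give only genotype and DSS, and these were followed.

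DSS is a sulfated polysaccharide that damages the colon epithelium and brings on colitis, and Reg3a encodes a secreted C-type lectin that binds bacteria. The circadian clock, which several of the interacting genes belong to, is a feedback loop present in most tissues. CLOCK and ARNTL (BMAL1) activate the Per, Cry, Nr1d and Ciart genes through E-box sequences, and the products of these genes repress the loop in turn. DBP, TEF and HLF, themselves driven by the loop, bind D-box sequences in further target genes. Transcript levels of most of these genes depend on the hour at which a tissue is taken. Glutathione transferases, another recurring group, couple glutathione to reactive compounds.

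Array medians ran from 6.65 to 6.88 and SDs over probe sets from 1.71 to 2.02, so the arrays were not fully alike in distribution. The calls changed with quantile normalization and with array spread as a covariate, as given at the end. The 9 colon epithelium markers averaged 11.10 to 12.02 per mouse, as fits the tissue label. Xist, made in female cells, was high in 2 mice of every group. DSS TG49 stood apart from the other DSS TG mice in the 19 measured neutrophil markers, at a mean of 7.79 against 6.13 to 6.31, and DSS WT55 had the highest neutrophil mean (8.56) and the lowest mean of 32 absorptive colonocyte markers (8.71). Posterior Hox genes, which mark position along the gut, averaged 6.67 to 6.78 in DSS TG, 6.43 to 7.26 in untreated TG, 6.27 to 6.57 in DSS WT and 6.68 to 7.43 in untreated WT mice.

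Of 19908 genes 31 (0.156%) passed at an adjusted p under 0.05 in limma, and these are called below. The difference of differences was positive for 30 of them (0.151% of all genes) and negative for 1, the chaperone gene Hsph1 (0.00502%). Sizes ranged from 0.62 to 2.35, with a median of 1.31, and 21 genes reached 2-fold. At an unadjusted p under 0.05 there were 1478 genes (7.42%), of which 1155 were positive (5.8%) and 323 negative (1.62%). Over all genes the median was -0.02 and 45.2% of values were positive. Clock genes (6), glutathione transferases (4) and enzymes of conjugation or amino acid metabolism (Cbr2 and Kyat1) accounted for most of the 14 called genes that were in any of 39 gene lists, and 17 called genes were in none. RNA came from whole colon, so fewer cells of a type and less RNA per cell cannot be told apart in any of these values.

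The same positive value can arise from different groups, and the called genes were sorted by the group whose mean lay farthest from the mean of the other 3. This takes only the largest distance, and in some genes another group lay nearly as far. In Unc119, counted under DSS WT, the DSS TG (8.13) and untreated WT (8.0) means were high and the untreated TG (7.16) and DSS WT (7.0) means low. Untreated WT mice lay farthest in 12 genes and above the others in each, among them all 6 clock genes. All 5 untreated WT mice exceeded the other 15 in 11 called genes, a separation found in 0.161% of all genes. DSS WT mice lay farthest in 16 genes, below the others in 15 and above them in Hsph1. All 5 DSS WT mice were under the other 15 in 6 called genes (0.362% of all genes) and over them in Hsph1 (0.0251%). DSS TG mice lay farthest, and above, in Ttyh2, Cbr2 and Emp2, with no overlap in Ttyh2 and Emp2 (0.0402%). Untreated TG mice lay farthest in 0 called genes. Among all genes the farthest group was untreated WT in 17.3%, DSS WT in 25.2%, DSS TG in 25.4% and untreated TG in 32.2%. Among called genes these shares were 38.7%, 51.6%, 9.68% and 0%. The pattern follows from the same values as the call, so these counts describe the genes and test nothing further.

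**Figure D1:**
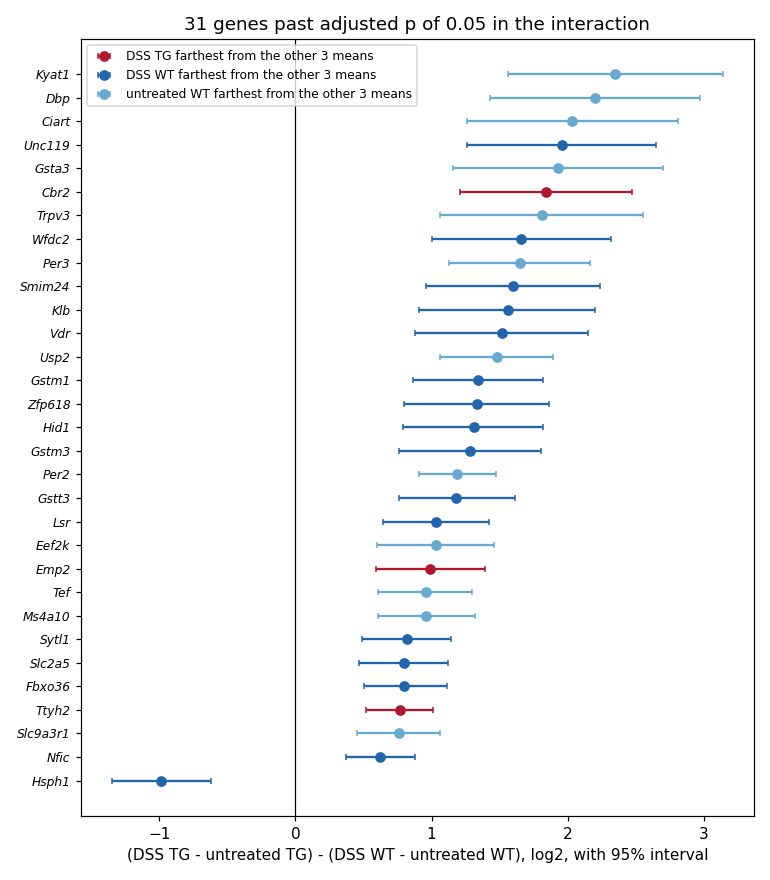
Difference of differences (log2, horizontal axis) of the 31 called genes with 95% limma intervals, sorted by value and coloured by the group whose mean lies farthest from the mean of the other 3. Values run from 2.35 in Kyat1 to 0.62 in Nfic on the positive side, and Hsph1 stands alone at -0.99.

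How many genes passed depended on single mice, while the sign of all 31 genes was the same in each leave-one-out fit and in each alternative fitted per gene. These genes were chosen in the same arrays for values far from 0, so a stable sign is no further test. Per2, Usp2, Per3 and Ttyh2 were called in all 20 leave-one-out fits, and Eef2k in the fewest (3). Without 1 DSS TG mouse the number called was 10 (TG44), 10 (TG46), 5 (TG47), 5 (TG48) or 45 (TG49), and without untreated TG28, TG31 or TG631 it was 10, 4 or 15. Without DSS WT56 it was 14, and without untreated WT7, WT8, WT9, WT10 or WT11 it was 7, 4, 59, 9 or 13. With the posterior Hox level of each mouse as a covariate 0 genes passed in limma, and the smallest adjusted p was 0.15. At an unadjusted p under 0.05 there were 891 of 19908 genes, a share below 0.05, against 1478 without the covariate. All 31 called genes were among the 891, but they were chosen in the same arrays, so this is no further test. The median SE rose with that covariate to 0.237, against 0.193 without it, and the part of gut position in the calls cannot be told apart from the groups in which these Hox levels differ.

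Reg3a, the gene named by the transgene, was not called. Reg3a read 5.15, 5.07, 5.13, 4.89 and 5.00 in DSS TG mice and 5.08, 5.11, 5.16, 5.24 and 5.15 in untreated TG mice. The DSS WT values were 5.07, 5.09, 5.48, 5.25 and 5.10, against 5.28, 5.20, 5.08, 5.10 and 5.58 in untreated WT mice. The 4 groups overlapped, and the difference of differences was -0.05 (SE 0.14, 95% interval -0.34 to 0.24, adjusted p = 0.959). Its sign turned to 0.06 after quantile normalization, to 0.03 with array weights and to 0.02 without DSS WT55. Whether this mouse probe set reads the transgene was not tested.

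Clock genes had the 3 smallest p-values of all genes, in Per2, Usp2 and Per3. Of 36 genes in 3 clock lists 32 were measured, 6 were called and all 6 were positive, namely Per2, Per3 and Ciart among the repressors and Dbp, Tef and Usp2 among the output genes. The median over the 32 genes was 0.41 and 75% were positive. A promoter window was at hand for 5 of the 6 called clock genes. Those of Ciart, Per3 and Tef are shown because they hold letters that clock factors recognise, and those of Dbp and Usp2 hold none of the 3 motifs searched. They are RefSeq windows of the GRCm38.p6 build, 250 bases before to 50 after the transcription start, on chr3:95882179-95882478 (minus strand) for Ciart, chr4:151044616-151044915 (minus strand) for Per3 and chr15:81802423-81802722 (plus strand) for Tef. Capitals mark CACGTG (an E-box) in Ciart and Tef and TTATGTAA (a D-box) in Per3.
Ciart: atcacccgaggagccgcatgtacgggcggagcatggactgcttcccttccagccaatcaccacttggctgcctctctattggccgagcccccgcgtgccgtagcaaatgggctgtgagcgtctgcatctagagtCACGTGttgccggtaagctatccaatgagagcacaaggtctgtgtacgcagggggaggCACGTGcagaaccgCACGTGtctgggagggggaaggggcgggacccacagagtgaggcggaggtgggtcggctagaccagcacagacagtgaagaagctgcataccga
Per3: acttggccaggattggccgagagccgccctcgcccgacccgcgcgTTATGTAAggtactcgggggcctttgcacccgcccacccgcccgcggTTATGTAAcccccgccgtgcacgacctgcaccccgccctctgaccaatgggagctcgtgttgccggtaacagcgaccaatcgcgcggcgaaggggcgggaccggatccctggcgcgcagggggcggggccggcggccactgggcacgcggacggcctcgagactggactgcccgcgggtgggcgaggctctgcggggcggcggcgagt
Tef: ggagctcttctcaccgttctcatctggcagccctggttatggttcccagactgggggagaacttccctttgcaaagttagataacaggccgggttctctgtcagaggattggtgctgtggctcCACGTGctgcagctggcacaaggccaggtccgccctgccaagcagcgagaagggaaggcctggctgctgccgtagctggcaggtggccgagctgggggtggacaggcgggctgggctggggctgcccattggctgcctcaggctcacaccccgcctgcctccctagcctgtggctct
The 3 E-boxes of Ciart begin 116, 58 and 44 bases before the start, the E-box of Tef begins 127 bases before it, and the 2 D-boxes of Per3 begin 205 and 158 bases before it. A second Tef window, from base 81811164, holds an E-box that begins 138 bases before its start. Both strands were searched for CACGTG, TTATGTAA and TTACGTAA, and no marked matches overlap. Of 32851 RefSeq windows 7.15% hold CACGTG, 0.938% hold TTATGTAA and 0.119% hold TTACGTAA, and of 27025 genes with a window 8.09%, 1.11% and 0.126% hold these motifs in at least 1 window. Among called genes 29 of 31 had a window, and 5 of them hold CACGTG (Ciart, Tef, Eef2k, Hsph1 and Trpv3). A match is a description of letters and not of binding.

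Per2, a core repressor, had the smallest p of all genes. Here and below, values stand in the order DSS TG44, TG46, TG47, TG48 and TG49, untreated TG26, TG28, TG29, TG31 and TG631, DSS WT52, WT53, WT55, WT56 and WT65, and untreated WT7, WT8, WT9, WT10 and WT11. Per2 read 7.51, 7.67, 7.68, 7.71 and 7.67 in DSS TG mice and 7.45, 7.54, 7.65, 7.65 and 7.64 in untreated TG mice. DSS WT mice had 7.33, 7.70, 7.53, 7.82 and 7.53, and untreated WT mice had 8.94, 8.56, 8.51, 8.76 and 8.77. The 5 untreated WT mice stood above all others, and the other 3 groups lay in 1 narrow band. As the hour of collection is not given, its part in this and the other clock genes cannot be told apart from the groups. For Per2 the difference of differences was 1.19 (SE 0.13, 95% interval 0.91 to 1.47, adjusted p = 0.000646), and it stayed between 1.13 and 1.25 when any 1 mouse was left out. With the posterior Hox covariate it was 1.1 (adjusted p = 0.15).

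The related repressor Per3 read 7.29, 7.15, 7.46, 7.39 and 7.44 in DSS TG mice and 7.61, 7.34, 7.70, 7.03 and 7.17 in untreated TG mice. The DSS WT values were 6.58, 6.92, 6.55, 6.62 and 7.17, against 8.56, 8.22, 7.85, 8.77 and 8.82 in untreated WT mice. Untreated WT mice were again the highest, and DSS WT mice included the lowest readings. The interaction was 1.65 (SE 0.25, 95% interval 1.13 to 2.16, adjusted p = 0.0131). Ciart, a repressor that acts on the CLOCK and ARNTL pair, averaged 6.42 ± 0.18 in DSS TG, 6.53 ± 0.60 in untreated TG, 6.30 ± 0.20 in DSS WT and 8.45 ± 0.60 in untreated WT mice (SD, n = 5 each). All 5 untreated WT mice exceeded the other 15, and the interaction was 2.03 (SE 0.37, adjusted p = 0.034).

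Among the output genes, 3 of 14 measured were called, each with its highest mean in untreated WT mice. Usp2, a ubiquitin protease with rhythmic expression, read 7.89, 7.89, 8.08, 7.92 and 7.95 in DSS TG mice and 8.48, 7.74, 7.89, 7.51 and 7.98 in untreated TG mice. Among WT mice the values were 7.61, 7.75, 7.57, 7.97 and 7.59 under DSS and 9.34, 9.06, 8.90, 9.36 and 9.09 in untreated animals. All untreated WT mice lay above the rest, and untreated TG26 was the highest of the other 15. The interaction was 1.48 (SE 0.20, 95% interval 1.06 to 1.89, adjusted p = 0.00406). Dbp, a D-box binding activator, read 8.10, 7.99, 8.50, 8.25 and 7.93 in DSS TG mice and 8.34, 7.42, 8.81, 7.60 and 7.79 in untreated TG mice. DSS WT mice had 7.30, 7.97, 7.42, 8.01 and 8.27, and untreated WT mice had 10.39, 10.19, 9.20, 9.55 and 9.83. Here too the untreated WT mice did not overlap with the others, while untreated TG mice spread the most. Its interaction, 2.20 (SE 0.37, 95% interval 1.43 to 2.97, adjusted p = 0.0228), was the largest among clock genes. The related activator Tef averaged 8.04 ± 0.13 in DSS TG, 8.13 ± 0.28 in untreated TG, 8.01 ± 0.13 in DSS WT and 9.05 ± 0.15 in untreated WT mice, and its interaction was 0.96 (SE 0.16, adjusted p = 0.0228).

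**Figure D2:**
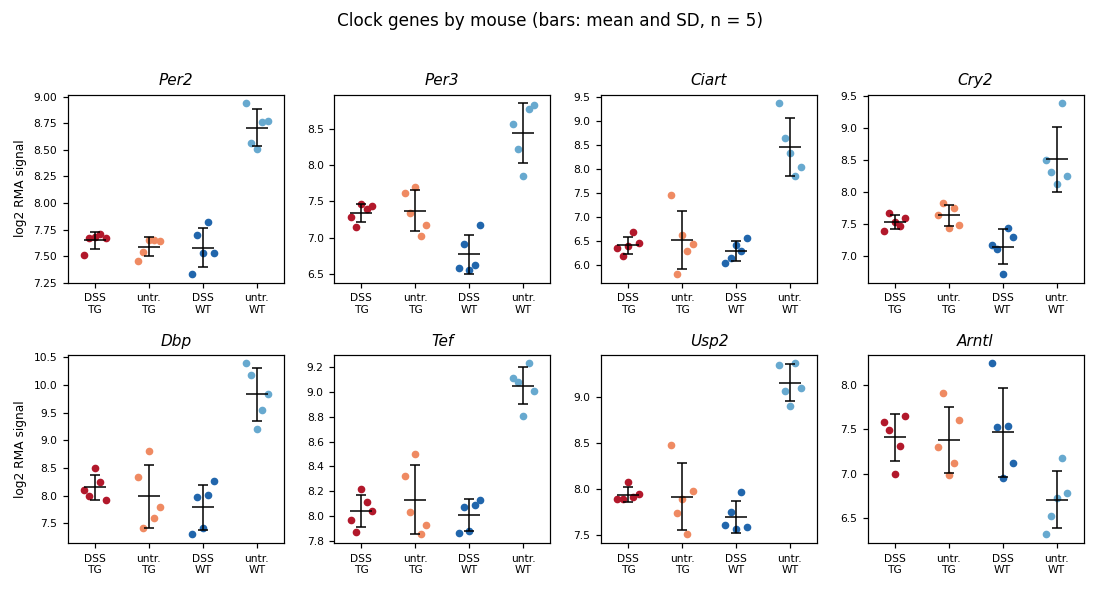
Log2 RMA signal (vertical axis) of 8 clock genes in each of 20 mice, with group mean and SD as bars (n = 5). In the 6 called genes and in Cry2 the untreated WT mice stand above the other 15, and in Arntl they have the lowest mean, 6.71.

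The remaining clock genes did not pass. Over all repressors, the 3 called ones included, 14 of 15 were measured with a median of 0.92. Of these 14, 10 were positive at an unadjusted p under 0.05 and 1 was negative. Cry2, a repressor that pairs with PER proteins, came closest at 1.27 (95% interval 0.73 to 1.81, adjusted p = 0.0583). Its 5 untreated WT mice (8.12 to 9.39) exceeded the 15 others (6.71 to 7.83). The nuclear receptor repressors Nr1d2 and Nr1d1 had 1.28 (adjusted p = 0.15) and 1.07 (adjusted p = 0.45), Per1 had 0.99 (adjusted p = 0.396), and the helix-loop-helix repressors Bhlhe40 and Bhlhe41 had 0.85 (adjusted p = 0.367) and 0.38 (adjusted p = 0.241). Nfil3, which competes with DBP at D-boxes, was on the other side of 0 at -0.65 (adjusted p = 0.659). Output genes, 14 of 15 measured and the 3 called ones included, had a median of 0.39. Among those not called were Wee1, a kinase that holds cells before mitosis, at 0.98 (adjusted p = 0.193), Klf9 at 0.92 (adjusted p = 0.511) and Hlf at 0.43 (adjusted p = 0.48).

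Activators showed 0 calls in limma, and 1 of the 4 measured was negative at an unadjusted p under 0.05. That gene was Arntl, with an interaction of -0.74 (95% interval -1.40 to -0.09, adjusted p = 0.555). Its values of 6.32 to 7.18 in untreated WT mice reached into those of the other 15, at 6.95 to 8.24. Clock stood at 0.28 (95% interval -0.40 to 0.96, adjusted p = 0.933), and its sign turned to -0.60 with the posterior Hox covariate. The number of clock genes called was 3 without DSS TG47, DSS TG48, untreated TG31, untreated WT7 or untreated WT8, 0 with the posterior Hox covariate (8 at an unadjusted p under 0.05) and 13 with array weights.

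Glutathione transferases gave 4 calls, all positive, among 20 measured of 23, and 19 of the 20 values (95%) were positive. The median was 0.77, and 12 were positive at an unadjusted p under 0.05. The called members belong to the mu class (Gstm1, Gstm3), the theta class (Gstt3) and the alpha class (Gsta3). Gstm1 read 11.20, 10.83, 11.13, 11.23 and 10.39 in DSS TG mice and 11.40, 11.13, 11.20, 10.89 and 11.38 in untreated TG mice. DSS WT mice had 9.87, 10.20, 9.61, 10.21 and 10.46, and untreated WT mice had 11.72, 11.53, 11.65, 11.73 and 11.64. Untreated WT mice were all above the rest for Gstm1, and 4 of 5 DSS WT mice were below all other mice, with DSS TG49 in between. Its interaction was 1.34 (SE 0.23, 95% interval 0.86 to 1.82, adjusted p = 0.0228).

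Gstt3 read 9.89, 9.73, 9.46, 9.63 and 9.80 in DSS TG mice and 9.71, 9.34, 9.40, 9.09 and 9.53 in untreated TG mice. The DSS WT values were 9.11, 9.05, 8.47, 8.91 and 8.73, against 9.85, 9.77, 9.40, 10.11 and 9.63 in untreated WT mice. DSS WT mice had the lowest mean, and their highest value overlapped with the lowest of the untreated TG mice. The interaction was 1.18 (SE 0.20, 95% interval 0.76 to 1.61, adjusted p = 0.0228). Gstm3 averaged 10.18 ± 0.37 in DSS TG, 9.97 ± 0.16 in untreated TG, 9.07 ± 0.36 in DSS WT and 10.15 ± 0.22 in untreated WT mice. All 5 DSS WT mice lay below the other 15, with an interaction of 1.28 (SE 0.25, adjusted p = 0.0423). Members of this family share sequence, and cross-hybridisation between them was not tested.

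Gsta3 stood low in 2 groups rather than 1. It averaged 8.13 ± 0.25 in DSS TG, 7.28 ± 0.42 in untreated TG, 7.32 ± 0.58 in DSS WT and 8.40 ± 0.46 in untreated WT mice, and the interaction was 1.93 (SE 0.37, 95% interval 1.16 to 2.7, adjusted p = 0.0407). Its RefSeq promoter window, chr1:21240335-21240634 on the plus strand of GRCm38.p6, is shown because it is the 1 window among those of the called transferases that holds TGACNNNGC, the antioxidant response element, in capitals.
Gsta3: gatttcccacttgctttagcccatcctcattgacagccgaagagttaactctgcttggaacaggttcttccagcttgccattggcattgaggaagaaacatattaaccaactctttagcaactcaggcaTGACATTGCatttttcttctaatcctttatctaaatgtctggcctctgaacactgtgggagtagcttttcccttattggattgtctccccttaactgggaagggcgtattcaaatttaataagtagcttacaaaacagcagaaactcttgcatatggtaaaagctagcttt
The match begins 121 bases before the start. On either strand TGACNNNGC occurs in 12.4% of all windows and in 14% of genes with a window, and among called genes also in those of Emp2, Hsph1, Klb, Kyat1 and Usp2. Of the transferases that did not pass, Gstm7 had 0.92 (adjusted p = 0.0696), Gstm6 1.49 (adjusted p = 0.168), Gstm2 0.89 (adjusted p = 0.187), Gstt1 0.85 (adjusted p = 0.227), Gstt2 0.68 (adjusted p = 0.296), Gstp1 0.67 (adjusted p = 0.352) and Gsta4 1.00 (adjusted p = 0.526). The mitochondrial and peroxisomal member Gstk1 was the 1 negative value, at -0.28 (95% interval -0.85 to 0.28).

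**Figure D3:**
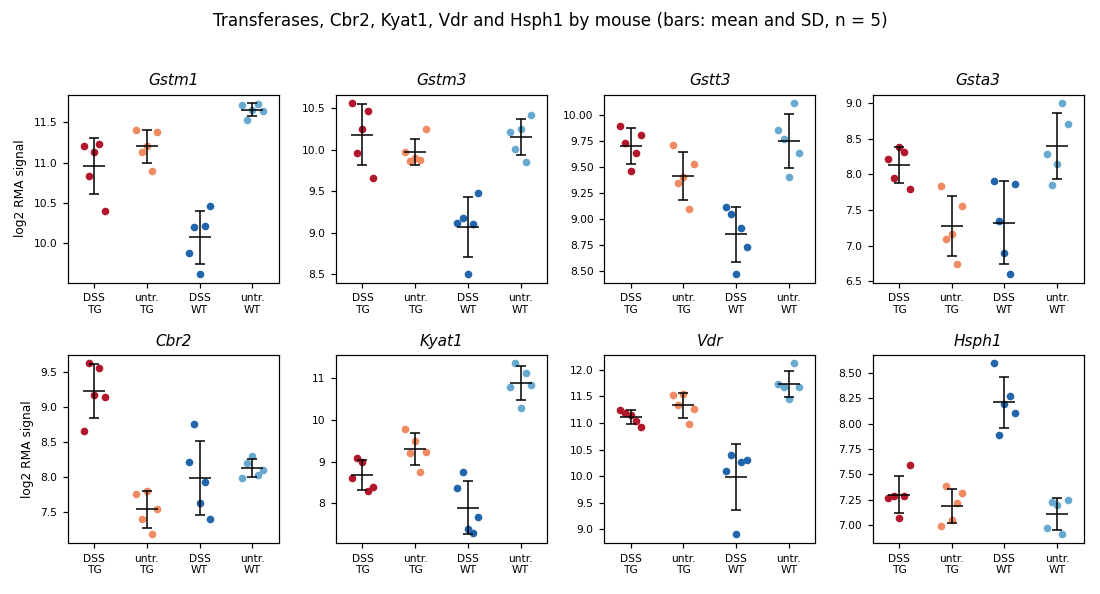
Log2 RMA signal (vertical axis) of 4 glutathione transferases, Cbr2, Kyat1, Vdr and Hsph1 in each of 20 mice, with group mean and SD as bars (n = 5). DSS WT mice lie below the rest in Gstm3 and Vdr and above the rest in Hsph1, DSS TG mice have the highest mean in Cbr2 (9.23), and untreated WT mice exceed all others in Gstm1 and Kyat1.

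Kyat1, a pyridoxal enzyme that transaminates kynurenine and cleaves cysteine conjugates, had the largest value of all called genes. Kyat1 read 8.61, 9.09, 8.99, 8.29 and 8.39 in DSS TG mice and 9.78, 9.21, 9.49, 8.76 and 9.23 in untreated TG mice. Among WT mice the values were 8.36, 8.76, 7.39, 7.30 and 7.67 under DSS and 10.78, 11.34, 10.28, 11.11 and 10.83 in untreated animals. Untreated WT mice lay above all others, and DSS WT mice held the lowest values. The interaction was 2.35 (SE 0.38, 95% interval 1.56 to 3.14, adjusted p = 0.0227). No other gene among 19 measured enzymes of amino acid and tryptophan metabolism was called, and their median was 0.15.

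Cbr2, an NADPH-dependent carbonyl reductase, showed another arrangement. Cbr2 read 8.66, 9.63, 9.17, 9.56 and 9.15 in DSS TG mice and 7.75, 7.40, 7.80, 7.17 and 7.53 in untreated TG mice. DSS WT mice had 8.21, 8.76, 7.63, 7.93 and 7.39, and untreated WT mice had 7.98, 8.20, 8.30, 8.03 and 8.10. DSS TG mice were highest and untreated TG mice lowest in mean, while the WT groups overlapped. The interaction was 1.84 (SE 0.30, 95% interval 1.21 to 2.47, adjusted p = 0.0228). It was the 1 called gene of 50 measured oxidoreductases and conjugating enzymes, whose median was 0.19, with 13 positive and 2 negative at an unadjusted p under 0.05. Larger but more variable was Cyp2f2, a cytochrome P450, at 3.21 (SE 0.70, adjusted p = 0.0793). Its values ran from 7.67 to 9.52 in DSS TG, 7.19 to 10 in untreated TG, 6.02 to 8.08 in DSS WT and 9.70 to 10.51 in untreated WT mice. The flavin monooxygenase Fmo5 had 1.05 (adjusted p = 0.112) and the P450 Cyp2s1 had 1.47 (adjusted p = 0.208).

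Among called genes outside the lists, Ttyh2, of the tweety family of membrane proteins, was called in every leave-one-out fit. Ttyh2 read 9.10, 8.91, 9.11, 8.97 and 9.05 in DSS TG mice and 8.71, 8.28, 8.71, 8.47 and 8.46 in untreated TG mice. Among WT mice the values were 8.39, 8.54, 8.55, 8.48 and 8.53 under DSS and 8.87, 8.71, 8.75, 8.64 and 8.83 in untreated animals. All DSS TG mice lay above the other 15, and DSS WT and untreated TG mice shared the low end. The interaction was 0.77 (SE 0.12, 95% interval 0.52 to 1.01, adjusted p = 0.0155). Emp2, a tetraspan membrane protein, also had its highest values in DSS TG mice, 9.60 to 9.95, with the 15 others at 8.52 to 9.58, and an interaction of 0.99 (SE 0.19, adjusted p = 0.0419). Unc119, which binds lipid-modified proteins for transport, read 8.0, 7.96, 8.01, 8.19 and 8.47 in DSS TG mice and 7.01, 7.26, 7.69, 6.60 and 7.23 in untreated TG mice. The DSS WT values were 7.55, 7.48, 6.67, 6.50 and 6.81, against 7.92, 8.07, 7.32, 8.14 and 8.54 in untreated WT mice. DSS TG and untreated WT mice were high and the other 2 groups low, with overlap, and the interaction was 1.96 (SE 0.33, 95% interval 1.26 to 2.65, adjusted p = 0.0228).

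Vdr, Klb, Slc2a5 and Lsr each had their lowest mean in DSS WT mice. Vdr, the vitamin D receptor, averaged 11.11 ± 0.13 in DSS TG, 11.33 ± 0.23 in untreated TG, 9.99 ± 0.62 in DSS WT and 11.73 ± 0.24 in untreated WT mice. All DSS WT mice were below the other 15, DSS WT55 by the most at 8.90, and the interaction was 1.52 (SE 0.30, adjusted p = 0.0485). Klb, the co-receptor for endocrine fibroblast growth factors, had 1.56 (SE 0.31, adjusted p = 0.0485), the fructose transporter gene Slc2a5 had 0.80 (SE 0.15, adjusted p = 0.0423), and Lsr, a lipoprotein receptor found at tricellular junctions, had 1.03 (SE 0.19, adjusted p = 0.034). DSS WT mice also had the lowest mean in the secreted protein Wfdc2 (1.66), the small membrane protein Smim24 (1.60), Zfp618 (1.33), Hid1 (1.31), Sytl1 (0.82), Fbxo36 (0.80) and the transcription factor Nfic (0.62). Untreated WT mice had the highest mean in the cation channel Trpv3 (1.81), the kinase Eef2k (1.03), Ms4a10 (0.96) and the scaffold Slc9a3r1 (0.76), with adjusted p-values from 0.0293 for Ms4a10 to 0.0496 for Eef2k over these 11 genes.

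Absorptive colonocyte markers were also lowest in DSS WT mice. Their mean level per mouse was 9.94 to 10.09 in DSS TG, 9.88 to 10.62 in untreated TG, 8.71 to 9.83 in DSS WT and 10.16 to 10.49 in untreated WT mice, so that all DSS WT mice were below all others. Of 32 measured, 0 were called in limma, 13 were positive and 2 negative at an unadjusted p under 0.05, and the median was 0.46. Tgm3, a transglutaminase, had 3.47 (SE 0.97, adjusted p = 0.224), the proton pump Atp12a 2.45 (adjusted p = 0.249) and the magnesium channel Trpm6 1.30 (adjusted p = 0.265). Tgm3 split the DSS WT mice, where WT52 and WT53 read 10.88 and 10.99 and the other 3 read 6.89 to 7.38. Hsd17b13, a lipid droplet protein, went the other way at -1.1 (95% interval -1.58 to -0.62, adjusted p = 0.0645), with untreated TG mice highest at 7.54 to 8.32. The part of the colonocyte markers in the called genes was not tested.

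Hsph1, which encodes HSP110, the nucleotide exchange factor of HSP70, was the 1 called gene with a negative value. Its RefSeq promoter window, chr5:149636266-149636565 on the minus strand of GRCm38.p6, is printed with GAANNTTC in capitals. GAANNTTC is 1 arrangement of the paired unit of the heat shock element. The opposite arrangement was not searched and is not marked, so the window can hold further paired units.
Hsph1: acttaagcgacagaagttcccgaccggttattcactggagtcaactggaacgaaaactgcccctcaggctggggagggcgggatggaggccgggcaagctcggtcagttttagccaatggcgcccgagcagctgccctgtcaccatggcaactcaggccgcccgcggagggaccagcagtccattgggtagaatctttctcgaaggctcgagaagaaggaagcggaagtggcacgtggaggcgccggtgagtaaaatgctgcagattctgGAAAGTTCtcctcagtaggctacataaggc
The match begins 20 bases after the start. GAANNTTC occurs in 7.86% of all windows and in 9.04% of genes with a window, and among the 29 called genes with a window it also occurs in Fbxo36, whose interaction was positive. Hsph1 read 7.27, 7.29, 7.07, 7.29 and 7.59 in DSS TG mice and 6.99, 7.39, 7.05, 7.22 and 7.32 in untreated TG mice. The DSS WT values were 8.59, 7.89, 8.19, 8.27 and 8.10, against 6.97, 7.23, 7.20, 6.91 and 7.25 in untreated WT mice. All 5 DSS WT mice lay above the other 15, and the remaining groups overlapped. The interaction was -0.99 (SE 0.17, 95% interval -1.35 to -0.62, adjusted p = 0.0293).

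Other chaperone genes did not pass. Of 26 heat shock and cytosolic chaperone genes 23 were measured, Hsph1 among them, and 10 had positive and 13 negative values, with a median of -0.10. At an unadjusted p under 0.05 there were 2 negative genes, Hsph1 itself and Hspd1, a mitochondrial chaperonin, at -0.79 (adjusted p = 0.467). All 24 endoplasmic reticulum stress genes were measured, 0 were called in limma and 6 were negative at an unadjusted p under 0.05, with a median of -0.19. Hspa5 (BiP), the main chaperone of the endoplasmic reticulum, had -1.01 (95% interval -1.49 to -0.53, adjusted p = 0.0992). Its DSS WT mice, at 11.49 to 12.05, were above the other 15, at 10.30 to 11.43. Hsp90b1, Pdia6 and Manf, which act in folding in the same compartment, had -0.66, -0.65 and -0.40 (adjusted p from 0.427 to 0.487).

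The most negative values of all genes belonged to the lectins Reg3g and Reg3b, bactericidal products of the epithelium, and neither passed. Reg3g read 6.28, 5.99, 5.61, 8.65 and 11.30 in DSS TG mice and 5.21, 6.92, 5.35, 5.76 and 5.36 in untreated TG mice. DSS WT mice had 11.35, 10.84, 12.29, 12.58 and 12.75, and untreated WT mice had 5.22, 5.57, 5.63, 5.01 and 5.45. DSS WT mice were all high, and within DSS TG mice TG49 reached their range, TG48 lay between and the other 3 were low. The interaction was -4.74 (SE 1.08, 95% interval -7.00 to -2.47, adjusted p = 0.0992). Reg3b read 5.72, 5.86, 5.62, 7.31 and 10.97 in DSS TG mice and 5.78, 6.24, 5.88, 6.15 and 5.54 in untreated TG mice. The DSS WT values were 11.30, 10.52, 11.97, 13.04 and 12.87, against 5.79, 5.62, 5.72, 5.31 and 7.68 in untreated WT mice. TG49 again reached the range of DSS WT mice, TG48 lay above the untreated TG mice and the other 3 DSS TG mice were low, with an interaction of -4.74 (SE 1.1, 95% interval -7.04 to -2.43, adjusted p = 0.105). With array weights they were -4.05 for Reg3g (adjusted p = 0.0167) and -4.25 for Reg3b (adjusted p = 0.00569), and with the array spread covariate -5.01 (adjusted p = 0.0409) and -5.12 (adjusted p = 0.0343). Without DSS TG49 the values were -5.67 for Reg3g and -5.71 for Reg3b (adjusted p = 0.00141 for both). TG49 is the DSS TG mouse nearest to the DSS WT mice in both genes, so leaving it out widens the difference and narrows the spread.

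Retnlb, a bactericidal protein of goblet cells, had -3.10 (95% interval -4.73 to -1.47, adjusted p = 0.164). Its DSS WT mice, at 12.15 to 12.77, lay above the DSS TG mice, at 8.37 to 11.82. The acute phase gene Saa3 had -3.14 (adjusted p = 0.231) and the haptoglobin gene Hp -2.35 (adjusted p = 0.274). DSS TG49 had the highest DSS TG value in Retnlb, Saa3, Hp and Tacr1, so its removal makes these differences more negative. Leaving out DSS TG49 gave -3.61 for Retnlb (adjusted p = 0.0256), -3.88 for Saa3 (adjusted p = 0.0149), -2.92 for Hp (adjusted p = 0.0256) and -0.92 for the substance P receptor Tacr1 (adjusted p = 0.0229), against -0.79 for Tacr1 with all mice (adjusted p = 0.136). In that fit 45 genes passed, 37 positive and 8 negative, and 28 of them were among the 31. DSS TG49 was also the DSS TG mouse with high neutrophil markers, for example 9.50 against 6.13 to 6.82 in the other 4 for S100a9, a calprotectin subunit, whose interaction was -2.08 (adjusted p = 0.608). Of 22 measured antimicrobial genes outside the Reg family, 7 were positive and 15 negative, with a median of -0.17. The 1 called among them was Wfdc2, at 1.66 (adjusted p = 0.0407), and the most positive was the pentraxin gene Mptx1, at 2.49 (adjusted p = 0.359). Within the Reg family, with 0 of 7 measured genes called in limma and 3 at an unadjusted p under 0.05, the most positive was Reg4, at 2.92 (adjusted p = 0.254).

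**Figure D4:**
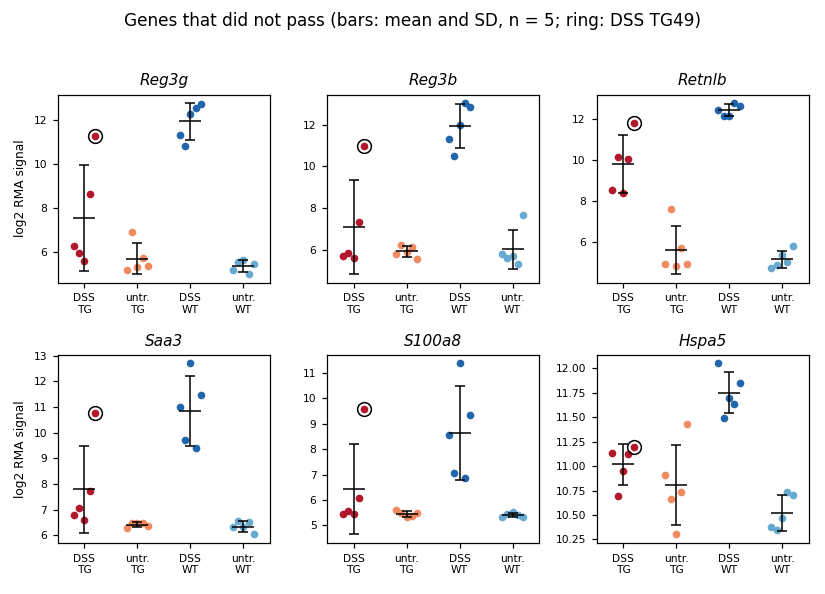
Log2 RMA signal (vertical axis) of 6 genes that did not pass, in each of 20 mice, with group mean and SD as bars (n = 5) and a ring around DSS TG49. In Reg3g and Reg3b DSS TG49 (11.30 and 10.97) lies within the range of DSS WT mice, and in Hspa5 the 5 DSS WT mice lie above the other 15.

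Inflammatory lists held no called gene, and in 32 of all 39 lists the number called in limma was 0. Neutrophil genes had the lowest list median, -0.60, with 17 of 19 negative and 3 of them at an unadjusted p under 0.05, followed by chemokines (-0.36), acute phase genes (-0.35), interferon-stimulated genes (-0.32), wound epithelium genes (-0.28) and cell cycle genes (-0.28, with 24 of 26 negative and 0 at an unadjusted p under 0.05). Mean neutrophil levels per mouse were 6.13 to 7.79 in DSS TG, 5.90 to 6.06 in untreated TG, 6.35 to 8.56 in DSS WT and 5.87 to 6.19 in untreated WT mice, so the DSS groups overlapped. S100a8 had -2.26 (95% interval -4.46 to -0.07, adjusted p = 0.644), Il1b -1.98 (adjusted p = 0.593), Lcn2, which binds bacterial siderophores, -1.85 (adjusted p = 0.686), and Plet1, a marker of wound epithelium, -2.32 (adjusted p = 0.521).

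On the positive side by their median (0.31) stood crypt stem cell and Wnt target genes, though only 11 of 19 were positive and 8 were negative, down to -0.91. Positive genes at an unadjusted p under 0.05 in limma numbered 6, against 0 negative ones. They include Ephb3, a receptor that sorts crypt cells, at 0.57 (adjusted p = 0.0898), the stem cell factor Ascl2 at 0.60 (adjusted p = 0.16) and Axin2, a feedback target of Wnt, at 0.44 (adjusted p = 0.306). Posterior Hox genes had a median of 0.30, and Hoxb13, of the most posterior Hox group, had 3.41 (SE 0.74, adjusted p = 0.0763), with 9.72 to 10.29 in DSS TG, 8.53 to 10.57 in untreated TG, 6.39 to 9.65 in DSS WT and 10.33 to 11.41 in untreated WT mice. Hoxd13 had 1.51 (adjusted p = 0.51), which turned to -0.61 with the list's own mean as covariate. The caudal factors Cdx1 and Cdx2 had 0.75 (adjusted p = 0.513) and -0.95 (adjusted p = 0.608). Pyy, a peptide hormone of the distal gut, had 1.97 (adjusted p = 0.23), but 9 of 16 enteroendocrine genes were negative, with a median of -0.03. The metabolic coactivator Ppargc1a had 1.58 (adjusted p = 0.265). Pancreas acinar genes had a median of 0.66 with 0 called in limma and 2 of 16 positive at an unadjusted p under 0.05, and their mean level was 11.23 in untreated TG631, 11.49 in untreated WT11 and 10.10 in untreated WT9, against 8.96 or less elsewhere. Without untreated WT11 that median was -0.12.

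**Figure D5:**
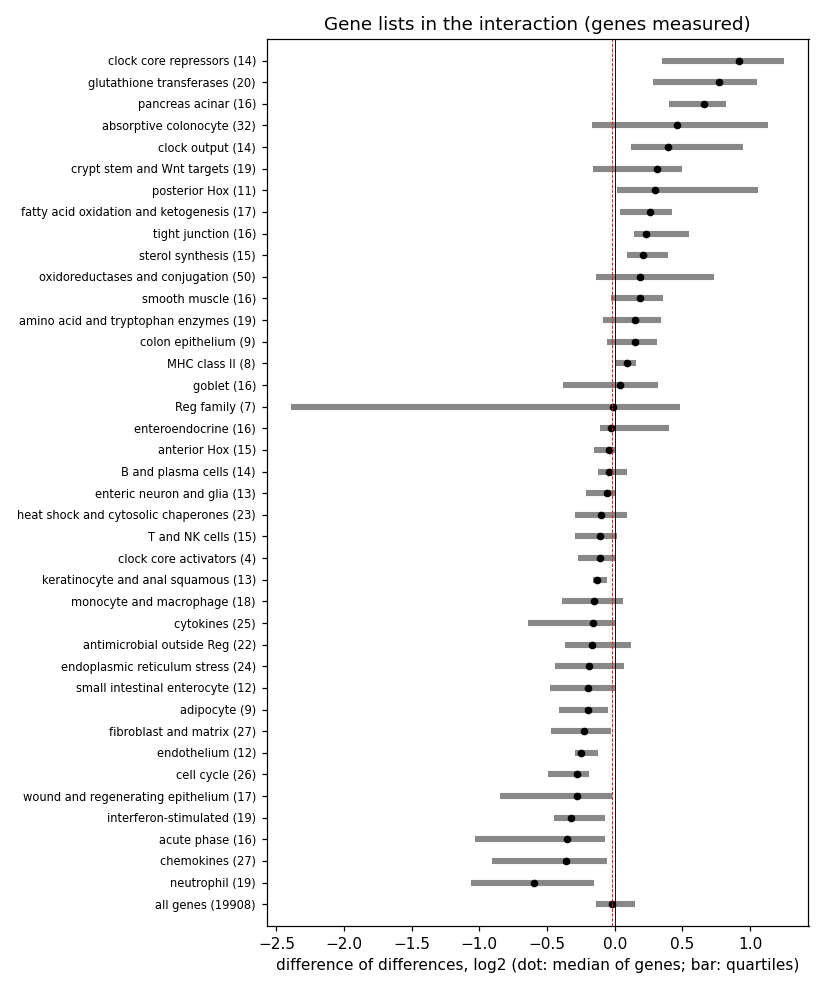
Median (dot) and quartiles (bar) of the difference of differences (log2, horizontal axis) over the measured genes of 39 lists and over all 19908 genes, whose median of -0.02 is the dashed line. Clock core repressors (0.92) and glutathione transferases (0.77) lie at the positive end and neutrophil genes (-0.60) at the negative end.

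Close to the threshold on the positive side were also the metalloproteinase inhibitor Timp4 at 1.18 (adjusted p = 0.0619), the calcium-activated chloride channel Ano1 at 2.0 (adjusted p = 0.0696) and the forkhead factor Foxq1 at 0.84 (adjusted p = 0.0732). Ano1 ran from 9.82 to 10.50 in DSS TG, 9.22 to 10.37 in untreated TG, 7.42 to 9.37 in DSS WT and 10.09 to 10.69 in untreated WT mice. On the negative side the serine palmitoyltransferase subunit Sptssb had -2.77 (adjusted p = 0.301), the sulfate transporter Slc13a1 -1.84 (adjusted p = 0.189) and the collagen-binding integrin Itga2 -1.06 (adjusted p = 0.23). In all, 64 genes passed at an adjusted p under 0.1, and 5 of them were negative.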

How the data were processed

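Colon RNA was read on Affymetrix Mouse Gene 1.0 ST arrays, 1 for each of 35 mice, and the 20 arrays of conventional mice were used here. The deposited values are log2 signal, which the authors made with RMA in Affymetrix Expression Console 1.1, per the submitters' processing notes; a genome build, not given in the sources used here, was not needed for the test. Values ran from 3.78 to 14.40, and the number of arrays limits the precision. Of 28090 probe sets, 23178 were annotated, 21639 with 1 symbol and 1539 with several, which were left out. For the 990 genes with more than 1 probe set the one with the highest mean over all 35 arrays was kept, leaving 19908 genes, of which 19826 matched a RefSeq gene by Entrez number.

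Groups and mouse numbers came from the titles. A linear model with 4 group means was fitted in limma 3.58.1 (R 4.3.3) with moderated variance, no covariate and a two-sided test of the interaction, and p-values were adjusted over all genes by the Benjamini-Hochberg method. A gene was called at an adjusted p under 0.05. SE is the moderated standard error and ± the SD over mice. The fit was run on simulated data with noise drawn for each gene on its own. Those data hold no variation shared between genes and no outlying mouse, so they cannot speak to the dependence on single mice. Members, 39 gene lists (729 distinct genes, 669 with a probe set) and tests were chosen with earlier results of these data known. Lists are described by counts and medians without a test. Named are all called genes, with the values of every mouse for the 10 smallest p-values and the negative gene, the 10 smallest p-values among uncalled genes in each direction or fewer, up to 4 genes per list, members of the clock and glutathione transferase lists, and a fixed set of colitis, Reg and Hox genes. Motifs were searched in RefSeq promoter windows. Alternatives were quantile normalization, a variance trend with robust weights, array weights, all 35 arrays, the mean of probe sets, all probe sets, a filter on mean signal, 4 covariates and leaving out each mouse. Python 3.11.15, numpy 2.4.6, pandas 2.3.3 and matplotlib 3.10.9 were used.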

Additional observations from a re-analysis of the deposited data

Results flagged for a closer look

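All 31 called genes are listed here because their difference of differences passed in the limma interaction test. The clock genes had 1.19 (Per2), 1.48 (Usp2), 1.65 (Per3), 2.20 (Dbp), 0.96 (Tef) and 2.03 (Ciart). Enzymes had 2.35 (Kyat1), 1.84 (Cbr2), 1.34 (Gstm1), 1.18 (Gstt3), 1.93 (Gsta3) and 1.28 (Gstm3). Receptors, channels, transporters and membrane proteins had 0.77 (Ttyh2), 0.96 (Ms4a10), 1.03 (Lsr), 1.60 (Smim24), 0.99 (Emp2), 0.80 (Slc2a5), 1.81 (Trpv3), 1.56 (Klb) and 1.52 (Vdr). The remaining positive genes had 1.96 (Unc119), 0.80 (Fbxo36), 1.31 (Hid1), 0.82 (Sytl1), 1.66 (Wfdc2), 1.33 (Zfp618), 0.76 (Slc9a3r1), 0.62 (Nfic) and 1.03 (Eef2k), and Hsph1 had -0.99.

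Single mice stood far from the other 4 of their group, by Dixon's test, in 5 of 124 groups of the called genes, and chance gives about 1 in 20 groups. DSS TG44 read 7.51 in Per2, against 7.67 in the nearest mouse. Untreated TG631 read 10.25 in Gstm3, with the nearest at 9.97. DSS WT55 read 7.69 in Fbxo36 and 8.90 in Vdr, with the nearest mice at 8.09 and 10.10, and it was also the mouse with the highest neutrophil and lowest colonocyte marker means. Untreated WT9 read 8.64 in Zfp618, with the nearest at 9.14.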

How the results depend on the processing

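Against 31 genes called, quantile normalization gave 33 (78.8% positive, against 96.8%, with 16 of the 31 among them), a variance trend with robust weights 21, all 35 arrays in 1 model 29 (20 of the 31), the mean of probe sets 30, the filter on mean signal 36 and the Xist covariate 41. Array weights gave 232 genes (73.3% positive), the array spread covariate 134 (65.7%), the smooth muscle covariate 12, all probe sets 17 and the posterior Hox covariate 0 in limma. With the posterior Hox covariate 891 of 19908 genes had an unadjusted p under 0.05, against 1478 without a covariate. The causes were not tested. Leaving out 1 mouse gave 4 to 59 genes, with 4 without untreated TG31 or untreated WT8 and 59 without untreated WT9, and 45 (82.2% positive) without DSS TG49. Clock genes called, 6 with all mice, were 13 with array weights, 0 with the posterior Hox covariate and 3 to 8 when 1 mouse was left out. Called genes kept their sign in all 929 comparisons of a gene with an alternative, as their choice in these same arrays made likely. The call was kept in 525 of the comparisons and lost in 404. For 64 named genes that were not called, 1917 such comparisons gave 96 new calls and 7 turned signs. These were Hoxd13 (-0.61), Klf9 (-0.03), Cdx2 (0.03) and Clock (-0.60) with the posterior Hox covariate, and Reg3a with array weights (0.03), quantile normalization (0.06) and without DSS WT55 (0.02, within a leave-one-out range of -0.13 to 0.02). List medians moved by more than 1 SD between mice in 42 of 1170 comparisons and turned sign in 73. No paired analysis was possible because the groups share no replicate numbers. With 5 mice per group and a median SE of 0.193, the smallest interaction called was 0.62, in Nfic (SE 0.12), and none smaller passed. Larger ones with a larger SE, such as Hoxb13 at 3.41 (SE 0.74), did not pass either. The deposited values hold no detection calls with which to set apart genes near background. The hour of collection was not modelled.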
